A study of Mus musculus with 4 samples.

Results

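DNA replication and mitosis genes are described here across 4 cultures of mouse bone marrow-derived dendritic cells (DCs). The 54 genes were listed by their function, from the licensing of replication origins to the division of the cell, and were found among the array's probes by gene symbol. They make up 54 of 19575 named genes and 92 of 41174 probes, and where a gene had several probes the probe brightest on average stands for it. The cells came from BALB/C mice and each culture was hybridised to 1 array, so no spread between cultures is known, no test was made, and the number of arrays limits the precision. The anti-IL-10 sDC culture was made like the sDC culture below, with 10 µg/mL of an antibody neutralizing IL-10 given every 2 days. For the sDC culture, progenitors depleted of lineage-positive cells were grown on a layer of Sca-1+CD117-Lin- mesenchymal stem cells (MSCs), lipopolysaccharide (LPS, a bacterial cell wall component that activates DCs) was added on day 4 at a dose that is not recorded, and the cells were taken on day 9. The maDC culture consisted of purified immature DCs, grown first with the cytokines named next for imDCs and then held for another 4 to 5 days with LPS at 10 ng/mL; the labels do not say whether the cytokines were kept on. The imDC culture consisted of immature DCs on day 4 of growth with 10 ng/mL of GM-CSF and 5 ng/mL of IL-4, picked up with magnetic beads against CD11c. The labels do not say how the sDCs were parted from the stroma. RNA measured in bulk cannot tell fewer dividing cells from less of these transcripts per cell.

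A cell that divides first copies its DNA and then separates the copies. Origins of replication are licensed when Cdc6 and Cdt1 load the MCM helicase in G1, geminin (Gmnn) blocks a second loading, and cyclin-dependent kinases start synthesis by the polymerases and their sliding clamp PCNA. In mitosis the kinases of the Aurora and Polo families, the kinesin motors and the centromere proteins build the spindle, and the checkpoint proteins hold back Cdc20, the activator of the anaphase-promoting complex, until all chromosomes are attached. Most of these genes are transcribed mainly in proliferating cells, the replication genes largely through E2F factors around the start of S phase and the mitosis genes later, through the DREAM and MuvB complexes at an element called CHR and through NF-Y at CCAAT boxes. Precursors of DCs divide in GM-CSF culture, and DCs matured with LPS are known to divide little.

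Promoters are shown because the replication and the mitosis genes differed in the motifs they held. They were taken from RefSeq on GRCm38.p6 as windows from 250 bases before to 50 bases after the annotated start, and 44 of the 54 genes had at least 1, for 48 windows in all. The motifs were CHR (TTTGAA or TTCGAA), E2F (TTTCCCGC, TTTGGCGC, TTTCGCGC or TTTGCCGC) and CCAAT, each searched on both strands. TTCGAA is its own reverse complement, and E2F words can overlap one another. The 7 windows below are those with at least 3 matches among the genes for which values on every array are given by rule. Capitals mark the matches on either strand, and the sequences run 5′ to 3′ along the strand of the gene.
Mcm5, chr8:75109259-75109558, + strand: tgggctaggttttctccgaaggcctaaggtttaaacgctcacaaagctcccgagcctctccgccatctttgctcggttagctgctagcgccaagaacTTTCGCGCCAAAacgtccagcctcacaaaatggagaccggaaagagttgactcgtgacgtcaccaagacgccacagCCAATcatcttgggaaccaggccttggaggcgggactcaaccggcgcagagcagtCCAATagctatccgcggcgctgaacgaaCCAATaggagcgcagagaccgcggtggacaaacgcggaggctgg
Top2a, chr11:99024140-99024439, - strand: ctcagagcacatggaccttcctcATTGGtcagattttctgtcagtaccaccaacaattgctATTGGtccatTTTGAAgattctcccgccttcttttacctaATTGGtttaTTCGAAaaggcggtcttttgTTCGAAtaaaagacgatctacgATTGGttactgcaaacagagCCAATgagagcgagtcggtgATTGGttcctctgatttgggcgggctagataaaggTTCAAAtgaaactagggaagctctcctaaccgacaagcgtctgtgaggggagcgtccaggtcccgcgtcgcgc
Aurka, chr2:172370521-172370820, - strand: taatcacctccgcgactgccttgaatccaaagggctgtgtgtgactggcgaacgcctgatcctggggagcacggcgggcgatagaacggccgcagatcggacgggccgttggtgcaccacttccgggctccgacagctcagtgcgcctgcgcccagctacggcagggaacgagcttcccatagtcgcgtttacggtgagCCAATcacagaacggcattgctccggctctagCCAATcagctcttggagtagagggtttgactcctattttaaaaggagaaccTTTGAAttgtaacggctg
Bub1, chr2:127831810-127832109, - strand: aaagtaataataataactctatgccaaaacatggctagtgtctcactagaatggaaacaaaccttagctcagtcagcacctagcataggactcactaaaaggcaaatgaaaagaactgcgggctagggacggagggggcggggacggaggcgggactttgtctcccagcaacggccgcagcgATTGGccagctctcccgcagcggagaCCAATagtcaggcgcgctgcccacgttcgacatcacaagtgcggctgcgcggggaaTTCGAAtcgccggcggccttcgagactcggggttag
Bub1b, chr2:118597961-118598260, + strand: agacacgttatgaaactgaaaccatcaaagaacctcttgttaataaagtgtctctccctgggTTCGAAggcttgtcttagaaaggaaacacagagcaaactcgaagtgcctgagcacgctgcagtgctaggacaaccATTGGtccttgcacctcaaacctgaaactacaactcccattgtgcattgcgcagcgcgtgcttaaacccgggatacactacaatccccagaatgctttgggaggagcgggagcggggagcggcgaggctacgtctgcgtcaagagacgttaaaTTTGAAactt
Cdc20, chr4:118437294-118437593, - strand: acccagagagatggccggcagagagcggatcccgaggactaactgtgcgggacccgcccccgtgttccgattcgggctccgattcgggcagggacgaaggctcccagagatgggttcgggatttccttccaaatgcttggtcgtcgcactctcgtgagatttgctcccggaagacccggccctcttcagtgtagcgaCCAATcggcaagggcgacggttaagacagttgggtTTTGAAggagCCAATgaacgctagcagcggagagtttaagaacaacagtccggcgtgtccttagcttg
Cenpf, chr1:189688037-189688336, - strand: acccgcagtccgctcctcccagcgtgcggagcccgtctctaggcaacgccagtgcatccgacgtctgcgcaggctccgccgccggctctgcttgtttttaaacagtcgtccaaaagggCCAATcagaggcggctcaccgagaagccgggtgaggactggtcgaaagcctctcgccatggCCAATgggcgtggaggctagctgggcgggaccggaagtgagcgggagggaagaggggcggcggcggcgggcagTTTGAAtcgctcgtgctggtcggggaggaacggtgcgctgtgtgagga
Mcm5, a helicase subunit, is the replication gene of the set and has a pair of E2F matches that overlap in the run TTTCGCGCCAAA, at positions -153 and -149 counted from the annotated start, and no CHR. The other 6 are mitosis genes with at least 1 CHR match and no E2F match, and in Top2a, the topoisomerase that untangles chromosomes, 4 CHR matches lie among 6 CCAAT matches.

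Over all 48 windows, CHR was present in 23 (47.9%, against 19.2% of the 32851 promoters in the table), E2F in 9 (18.8% against 2.26%) and CCAAT in 37 (77.1% against 37.4%). By class, 18 of 23 windows of mitosis genes held CHR and 0 held E2F, whereas 2 of 14 windows of replication genes held CHR and 7 held E2F. Cyclins, Cdk2, the Cdc25 phosphatases and the S phase regulators had CHR in 3 of 11 windows and E2F in 2. Each of the 23 windows with CHR also had CCAAT, so that 47.9% of the 48 windows held both, against 7.52% of all promoters. Of all promoters 6316 held CHR, and 2472 of these also held CCAAT. The CHR matches in mitosis genes had a median position of -17.5, close to the annotated start, and the median over all CCAAT matches was -58. The median GC content of the 48 windows was 58.8%, against 52.7% over all promoters. Of the genes with 2 windows, Ect2 and Prc1 had windows that overlap and share matches, whereas those of Mcm7 and Uhrf1 do not overlap. A match of a few letters is a description of the sequence and says nothing about binding.

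**Figure D1:**
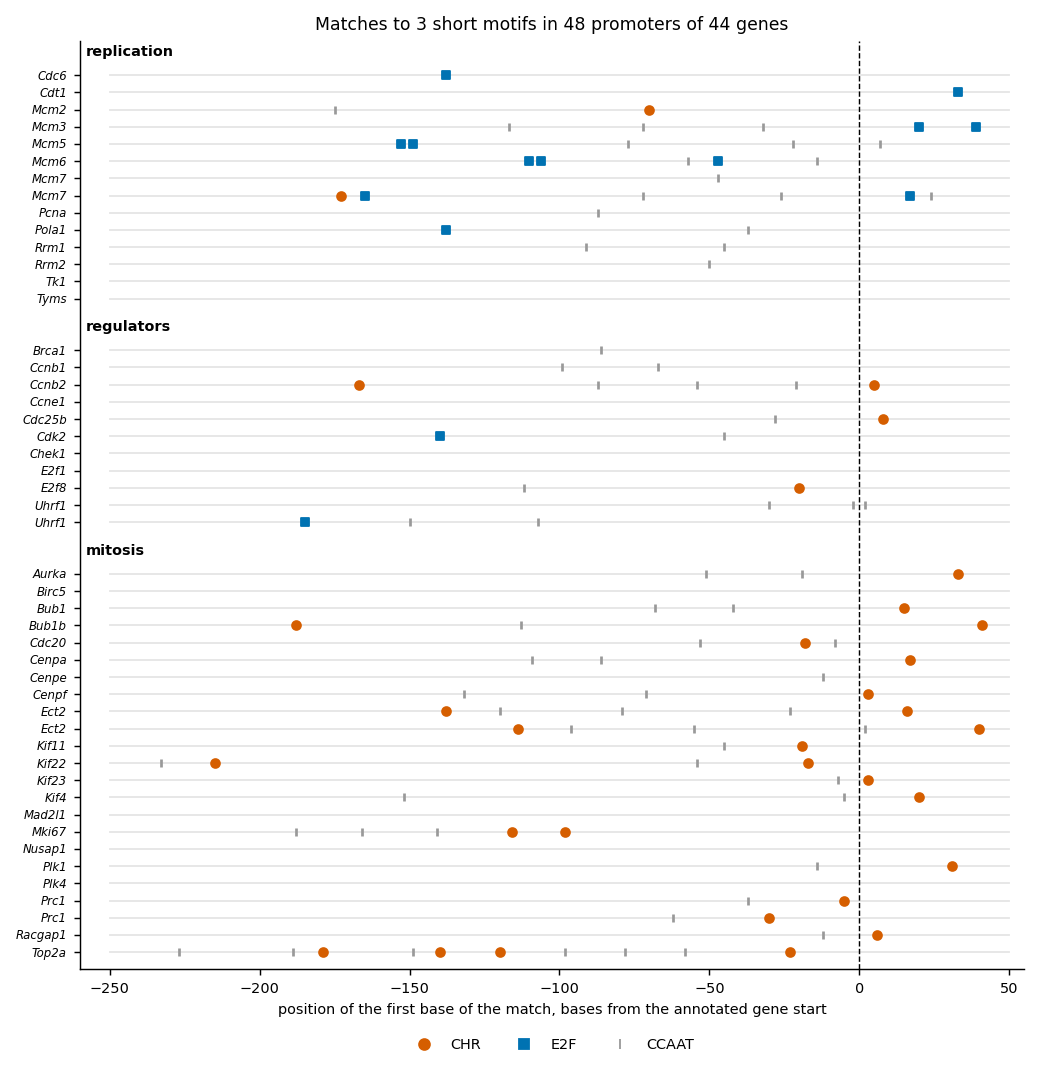
Matches to CHR (circles), E2F (squares) and CCAAT (ticks) along 48 promoter windows of 44 genes, with the position of the first base of each match in bases from the annotated start (dashed line) on the x axis. CHR circles are frequent among the mitosis genes, where 18 of 23 windows have at least 1, and E2F squares lie among the replication genes and 2 of the regulators.

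Of 43379 spots on each array, 63.4%, 66.0%, 61.2% and 69.7% were well above background (anti-IL-10 sDC, sDC, maDC and imDC), and none was saturated. All 54 genes were well above background on all 4 arrays, as were 65.3% of all named genes. Levels are log2 intensity minus the array's 75th percentile, so that a level of 0 is that percentile, and probes spotted 10 times varied with a median SD of at most 0.0591 between spots, which covers spotting and scanning alone. The imDC array lay on another slide than the other 3, so slide, culture time and LPS cannot be told apart in comparisons with imDCs, and starting cells, stroma and cytokines differed as well between sDCs and the other DCs. A gene is called higher or lower where it differs by at least 2-fold (1 log2 unit).

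Replication and mitosis genes were lower in maDCs than in imDCs: 44 of the 54 were at least 2-fold lower, 10 lay within 2-fold and 0 were higher. Over all genes with a value, 10.7% were lower and 21.6% higher. The median difference was -1.59 against 0.19 over all genes, and 53 of 54 genes lay below 0, whereas 57.9% of all genes lay above 0. Past 3-fold there were 27 genes, against 4.40% of all. The exception was Bub1, at 0.87, which was more than 1.5-fold higher in maDCs, as were 33.7% of all genes, and whose probes disagreed, as given below.

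In sDCs the same comparison with imDCs gave larger differences. Of the 54 genes, 49 were at least 2-fold lower and 5 within 2-fold (Pcna, Gmnn, Cdc25b, E2f1 and Cdt1), with 0 higher, against 16.1% lower and 25.4% higher over all genes. The median was -2.97 against 0.21 over all genes. At 3-fold, 47 genes were still lower, against 9.61% of all genes.

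Between the LPS-exposed cultures, whose arrays shared a slide, sDCs had the lower levels: 33 genes were at least 2-fold lower in sDCs than in maDCs, 19 lay within 2-fold and 2 were higher, Cdc25b and E2f1. Over all genes 16.8% were lower and 14.2% higher. The median was -1.28 against 0.03. Past 3-fold, 16 genes were lower (10.3% of all genes) and 0 higher (7.31%), and Gmnn and Cdt1 joined the higher genes at 1.5-fold, where 24.6% of all genes stood.

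With the antibody against IL-10, none of the 54 genes differed by 2-fold from sDCs, where 1.27% of all genes were lower and 0.851% higher. Their median was 0.10 against -0.03 over all genes, and the range was -0.14 (Bub1) to 0.65 (Kif11). Of the 54, 36 lay above 0 and 18 below, so that 66.7% lay above 0, against 42.3% of all genes. Kif11 alone passed 1.5-fold, as did 2.07% of all genes. These comparisons share arrays, so the values for one gene in different comparisons are not independent.

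**Figure D2:**
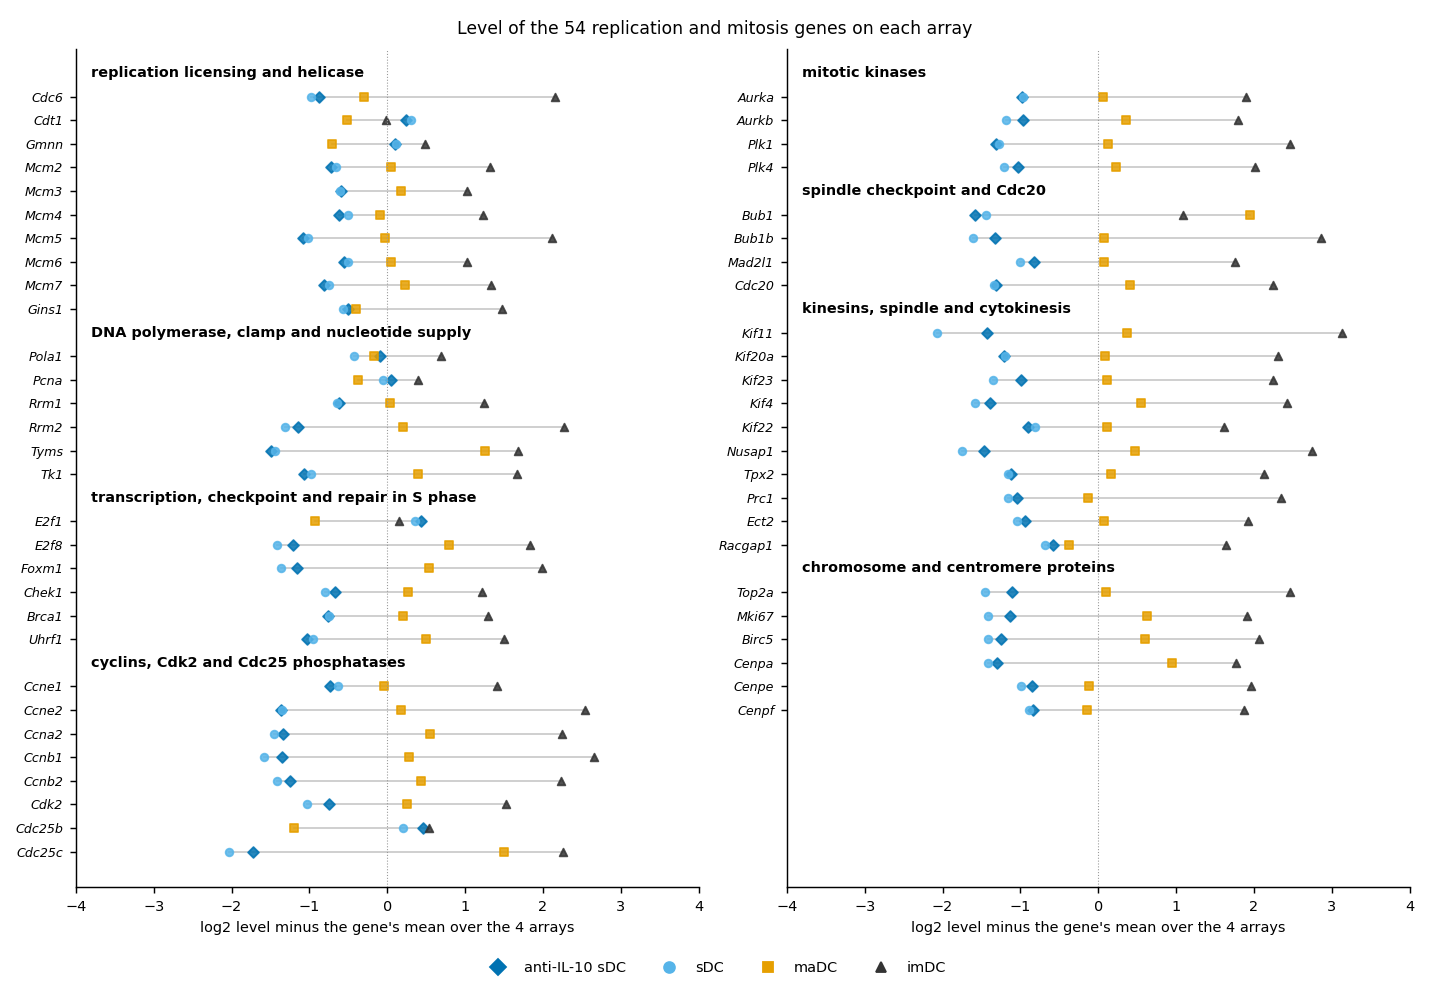
Level of each of the 54 genes on the 4 arrays, as log2 level minus the gene's mean over the arrays (x axis, log2 units), with genes in rows by role, 1 symbol per array and a grey line spanning the range. For 48 genes imDC is highest, maDC in the middle and sDC lowest of the 3 cultures without antibody, and the anti-IL-10 sDC symbol lies beside that of sDC.

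The order imDC above maDC above sDC held for 48 of the 54 genes (88.9%), and for 18% of the 12791 genes well above background on every array. The other 6 were Pcna, Gmnn and Cdc25b, which were lowest in maDCs and highest in imDCs, E2f1 and Cdt1, lowest in maDCs and highest in sDCs, and Bub1, highest in maDCs on its brightest probe. With the antibody array included, 32 of these 48 genes had sDC lowest and anti-IL-10 sDC next above it, 15 had anti-IL-10 sDC lowest, and Pola1 had anti-IL-10 sDC above maDC. That last step is within 2-fold for each of the 54 genes, and no spread between cultures is known to set against it.

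Licensing factors and the helicase act first in the cycle. Their median was -1.23 in maDCs and -1.86 in sDCs, each against imDCs, with 7 and 8 of 10 genes at least 2-fold lower. Cdc6, the loader of the MCM helicase, had levels of -1.87 on the anti-IL-10 sDC array, -1.97 on sDC, -1.28 on maDC and 1.17 on imDC. Its imDC level stood apart from the other 3, with differences of -2.45 for maDCs and -3.13 for sDCs against imDCs, although its other probe, at -0.88, put sDCs within 2-fold of imDCs. Mcm5 lay at 1.22 on anti-IL-10 sDC, 1.29 on sDC, 2.28 on maDC and 4.42 on imDC, so that its sDC difference from imDCs was -3.13 (8.77-fold lower). The remaining MCM genes (Mcm2, Mcm3, Mcm4, Mcm6 and Mcm7) differed by -2.07 to -1.53 between sDCs and imDCs, with Mcm4 at 3.06, 3.17, 3.58 and 4.91 on the anti-IL-10 sDC, sDC, maDC and imDC arrays, and Gins1, part of the GINS complex that completes the active helicase, by -2.04.

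Cdt1 and its inhibitor geminin were lowest in maDCs, unlike the other licensing and helicase genes on their chosen probes. The other probe of Cdc6 was also lowest in maDCs, at 0.72 for sDCs against maDCs. Cdt1 was at 3.98, 4.04, 3.22 and 3.72 on the anti-IL-10 sDC, sDC, maDC and imDC arrays. Its maDC level was the lowest, at -0.50 from imDC, and its sDC level the highest, at 0.32 from imDC. Gmnn was at 4.36, 4.37, 3.55 and 4.74 on the same arrays, 2.29-fold lower in maDCs than in imDCs and 0.82 higher in sDCs than in maDCs. No licensing or helicase gene differed by 2-fold between sDCs and maDCs (median -0.62).

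Among the genes for DNA synthesis and its nucleotides, 5 of 6 were at least 2-fold lower in sDCs than in imDCs (median -2.27), and 3 of 6 in maDCs (median -1.02). Rrm2, the small subunit of ribonucleotide reductase whose amount limits deoxynucleotide supply, lay at -0.19 on anti-IL-10 sDC, -0.36 on sDC, 1.16 on maDC and 3.22 on imDC. It was 12.0-fold lower in sDCs than in imDCs. Tyms, thymidylate synthase (probe at mm9 chr5:30387605-30387664), lay at 0.84 on anti-IL-10 sDC, 0.90 on sDC, 3.60 on maDC and 4.01 on imDC. Both stroma-formed cultures were low and both conventional DC cultures high, at -2.70 for sDCs against maDCs and -0.42 for maDCs against imDCs. A second Tyms probe gave -2.83 and -0.34, and a dim one 0.06 and -0.70. Thymidine kinase (Tk1) and the large reductase subunit Rrm1 differed by -2.65 and -1.89 between sDCs and imDCs. Pcna had 5.59, 5.48, 5.16 and 5.93 on the anti-IL-10 sDC, sDC, maDC and imDC arrays, all within 2-fold, and Pola1, the primase-bound polymerase, differed by -1.11 between sDCs and imDCs.

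Transcription factors and checkpoint genes of S phase had medians of -1.06 in maDCs and -2.24 in sDCs against imDCs, with 5 of 6 genes at least 2-fold lower in each. E2f1, an activator of replication genes, lay at 0.25 on anti-IL-10 sDC, 0.17 on sDC, -1.11 on maDC and -0.03 on imDC. Only the maDC level was low, and sDCs were 2.43-fold above maDCs (1.28). On a second E2f1 probe this difference was 1.62, while that between sDCs and imDCs was -0.30 against 0.20 on the brighter probe. E2f8, a repressor of E2F targets in late S phase, lay at -1.14, -1.35, 0.86 and 1.90 on the anti-IL-10 sDC, sDC, maDC and imDC arrays, and was 9.52-fold lower in sDCs than in imDCs. Foxm1, the forkhead factor that works with MuvB on mitosis genes, lay at -1.12, -1.32, 0.58 and 2.03 on these arrays, at -3.35 for sDCs against imDCs. Brca1 and Chek1, of DNA repair and its checkpoint, and Uhrf1, which maintains DNA methylation at replication, differed by -2.45 to -2.02 in that comparison.

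Cyclins, Cdk2 and the Cdc25 phosphatases that activate the kinases were lower in sDCs than in imDCs in 7 of 8 cases (median -3.67), and lower in maDCs in 7 of 8 (median -1.71). Ccnb1, the main mitotic cyclin, lay at -1.36 on anti-IL-10 sDC, -1.59 on sDC, 0.27 on maDC and 2.64 on imDC, an 18.7-fold lower level in sDCs than in imDCs. Its other probes gave -4.07 and -3.87. The cyclins Ccne2, Ccna2 and Ccnb2 differed by -3.90, -3.70 and -3.64 in the same comparison. Ccne1, a cyclin of S phase entry, lay at 1.96 on anti-IL-10 sDC, 2.07 on sDC, 2.66 on maDC and 4.10 on imDC, at -2.03 for sDCs against imDCs.

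The Cdc25 genes parted ways. Cdc25c, which triggers mitotic entry, lay at -5.06 on anti-IL-10 sDC, -5.37 on sDC, -1.84 on maDC and -1.08 on imDC, and the difference of -3.53 between sDCs and maDCs was the most negative of the 54. Its other probe was not well above background in sDCs, where it gave a difference of at least 1.82-fold lower than in maDCs, and it put maDCs at -3.36 from imDCs, against -0.76 on the brighter probe. Cdc25b lay at 1.44 on anti-IL-10 sDC, 1.17 on sDC, -0.22 on maDC and 1.52 on imDC. Its maDC level was low and the other 3 lay together, so that it was 2.62-fold higher in sDCs than in maDCs (1.39, and 1.33 on a second probe) and within 2-fold between sDCs and imDCs.

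The 4 mitotic kinases were lower in sDCs than in imDCs (median -3.10), in maDCs than in imDCs (median -1.81) and in sDCs than in maDCs (median -1.42), each past 2-fold. Plk1, the Polo kinase of centrosomes and kinetochores, lay at -0.46 on anti-IL-10 sDC, -0.42 on sDC, 0.98 on maDC and 3.32 on imDC, with sDCs 13.4-fold below imDCs. Plk4, which starts centriole duplication, lay at -2.78, -2.97, -1.52 and 0.26 on the same arrays and Aurka, the Aurora kinase of spindle poles, at 1.11, 1.13, 2.15 and 3.99. Aurkb, the Aurora kinase of centromeres, differed by -2.97 between sDCs and imDCs.

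Spindle checkpoint genes and Cdc20 had a median of -3.16 in sDCs against imDCs, all 4 at least 2-fold lower. Bub1b, which encodes the checkpoint protein BubR1 (probe at mm9 chr2:118466830-118466889), lay at -2.39 on anti-IL-10 sDC, -2.67 on sDC, -0.99 on maDC and 1.80 on imDC, 22.1-fold lower in sDCs than in imDCs. Cdc20 lay at 1.64 on anti-IL-10 sDC, 1.62 on sDC, 3.37 on maDC and 5.20 on imDC, an 11.9-fold lower level in sDCs. Mad2l1, another checkpoint protein, differed by -2.75.

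Bub1, a checkpoint kinase, was the gene on which probes disagreed in direction by the widest margin, a choice made after its values were seen. The brighter probe (mm9 chr2:127626326-127626385) read -0.68 on anti-IL-10 sDC, -0.53 on sDC, 2.86 on maDC and 1.99 on imDC, so that maDCs were highest. The other read 0.17, 0.00, 0.49 and 2.41 on these arrays, so that imDCs were highest and maDCs lay at -1.92 from them and sDCs at -0.49 from maDCs. Both put sDCs below imDCs, at -2.53 and -2.41.

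Kinesins and genes of the spindle and cytokinesis were lower than in imDCs in all 10 cases, both in maDCs (median -2.07) and in sDCs (median -3.51). Kif11, the motor that pushes the spindle poles apart (probe at mm9 chr19:37495755-37495814), lay at -3.92 on anti-IL-10 sDC, -4.56 on sDC, -2.12 on maDC and 0.63 on imDC. It had the most negative sDC difference from imDCs of the 54 genes, at -5.20 (36.6-fold lower), and its 2 dimmer probes gave bounds of at least 6.42-fold and at least 4.09-fold lower. Nusap1, which bundles spindle microtubules, lay at -1.20 on anti-IL-10 sDC, -1.48 on sDC, 0.74 on maDC and 3.01 on imDC, 22.5-fold lower in sDCs. Racgap1, which with the kinesin Kif23 forms the complex of the central spindle, lay at -1.85, -1.95, -1.64 and 0.37 on the same arrays, with imDC standing apart and sDCs and maDCs differing by -0.31. Its other probe gave -0.94 between sDCs and maDCs and -3.48 between sDCs and imDCs, against -2.32 on the chosen probe. Prc1, which crosslinks the central spindle, lay at 0.47, 0.36, 1.39 and 3.87, and Kif23 at -1.76, -2.12, -0.65 and 1.49. The motors Kif4, Kif20a and Kif22 and the spindle and cytokinesis factors Tpx2 and Ect2 differed by -4.01 to -2.43 between sDCs and imDCs.

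Chromosome and centromere genes had a median of -3.25 in sDCs and -1.75 in maDCs against imDCs, with 6 and 5 of 6 genes at least 2-fold lower. Top2a lay at -2.15 on anti-IL-10 sDC, -2.50 on sDC, -0.95 on maDC and 1.42 on imDC, 15.0-fold lower in sDCs than in imDCs. Birc5 (survivin, of the chromosomal passenger complex with Aurkb) lay at 1.61, 1.44, 3.46 and 4.93 on the anti-IL-10 sDC, sDC, maDC and imDC arrays and Mki67, the gene of the proliferation marker Ki-67 (probe at mm9 chr7:142881591-142881650), at 2.77, 2.49, 4.53 and 5.81. Both genes stepped down in the order of most members, at -3.48 and -3.32 for sDCs against imDCs. Cenpf, a kinetochore protein, lay at -1.43, -1.48, -0.74 and 1.29, Cenpe, a kinetochore motor, differed by -2.95 in sDCs from imDCs, and Cenpa, the centromeric histone, by -3.17.

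**Figure D3:**
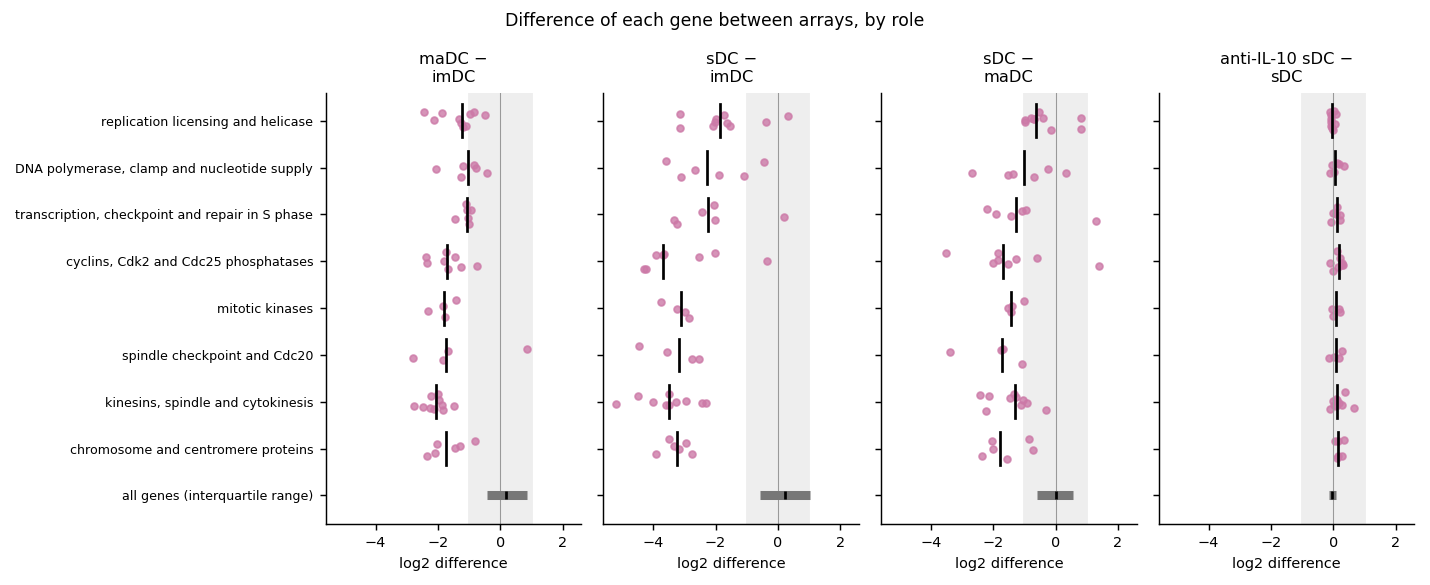
Log2 difference of each of the 54 genes (points) in the 4 comparisons, by role, with black lines at the median of each role, the band within 2-fold shaded, and the interquartile range of all genes as a grey bar in the last row. Points lie left of the band for most genes in the comparisons with imDCs and inside it in the antibody comparison, and in the 3 comparisons without the antibody the kinesin medians lie further left than those of the licensing genes.

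Replication and mitosis genes differed by unequal amounts. The median of the 24 mitosis genes was -1.92 in maDCs against imDCs, -3.31 in sDCs against imDCs and -1.46 in sDCs against maDCs. The 16 replication genes had -1.20, -1.93 and -0.69 in these comparisons, so that the mitosis median minus the replication median was -0.72, -1.37 and -0.77. Between sDCs and maDCs 20 of 24 mitosis genes but 3 of 16 replication genes (Rrm2, Tyms and Tk1) were at least 2-fold lower. The share over all genes was 16.8%, so the replication count is near that of genes at large. In the antibody comparison the mitosis median was 0.13 and the replication median -0.03. Split by promoter instead, the 20 genes with CHR and no E2F match had a median of -3.29 between sDCs and imDCs, the 8 with E2F and no CHR -2.04 and the 15 with neither -2.75. Class and motif coincide in most of these genes, so that the 2 splits are not separate results.

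Other genes of the cycle, from lists of the same pathways without the 54, were set beside the 54 genes. Of 38 other replication factors 28 were at least 2-fold lower in sDCs than in imDCs and 1, the origin recognition subunit Orc3 (1.36), higher, with a median of -1.54. Cdc45, the helicase activator, was at -3.88, and Mcm10, a replication initiation factor, at -3.41. All 40 other mitosis genes were lower, with a median of -3.18, among them the kinase Pbk (-4.36) and the kinetochore gene Spc24 (-4.08). In maDCs against imDCs 22 of 38 and 36 of 40 were lower, with medians of -1.07 and -2.04, and in sDCs against maDCs 6 of 38 and 23 of 40, with medians of -0.33 and -1.10. The shares lower over all genes were 16.1%, 10.7% and 16.8% in these comparisons, so that the 6 of 38 is near the last of them. In each of these comparisons the mitosis list had the lower median, as it had among the 54 genes. With the antibody, 1 gene of these lists passed 2-fold, Ube2s, a ubiquitin-conjugating enzyme of the anaphase-promoting complex, at 1.37.

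Regulators upstream of the cycle did not share one direction. In the list of G1 cyclins, G1 kinases and Myc genes, 5 of 8 were lower in sDCs than in imDCs and 1 higher (median -1.02). Some of the 5 passed the threshold of 1 log2 unit only narrowly, by less than the spot SD. Over all genes 16.1% were lower and 25.4% higher. The higher gene was Ccnd1 (cyclin D1), at 4.30 (19.7-fold) from imDCs and 5.14 from maDCs. In sDCs Ccnd2 differed by -1.81 from imDCs and -3.91 from maDCs, and Ccnd3 by -1.92 from imDCs. Of 14 inhibitors of cyclin-dependent kinases and antiproliferative genes, maDCs had 8 higher and 1 lower than imDCs (median 1.47), led by Cdkn2a (3.73), Gadd45b (3.49) and Cdkn2b (2.83), where 21.6% of all genes were higher. In sDCs 4 of the 14 were higher and 0 lower than in imDCs (median 0.28), near the 25.4% and the median of 0.21 over all genes, with Cdkn1c at 2.88 and Gadd45g at 2.14, and Cdkn2a and Cdkn2b were lower than in maDCs, at -4.43 and -3.66. Pocket proteins, E2F and DREAM or MuvB genes had 5 of 16 lower and 0 higher in sDCs against imDCs, where 16.1% of all genes were lower, and the 2 with the most negative values, Mybl2 (-4.24) and E2f7 (-3.51), are themselves cycle-regulated. Subunits and regulators of the anaphase-promoting complex, many of which are present throughout the cycle, had 12 of 13 within 2-fold in that comparison, the other being the inhibitor Fbxo5 at -2.90.

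Markers of other cells also differed between the cultures, and not all in the direction of the 54 genes. The granulocyte precursor genes Mpo, Prtn3, Ctsg and Ms4a3, of a cell type that divides in marrow, were all lower in maDCs and in sDCs than in imDCs (medians -3.36 and -6.47) and lower in sDCs than in maDCs (-4.10), and in the antibody culture they lay 0.56 to 1.32 above sDCs. Their summed level was 2.56 on anti-IL-10 sDC, 1.53 on sDC, 5.77 on maDC and 8.28 on imDC, the same order as that of 32 of the 54 genes. This order was not particular to them. The eosinophil genes summed to -3.8, -4.9, 1.7 and 4.7 on these arrays, with 1 of 4 well above background on each of the first 2. Without the antibody array, imDC above maDC above sDC held for 18% of all genes well above background on every array. Progenitor genes were lower in sDCs than in imDCs in 5 of 7 cases, with Myb at -6.08, against 16.1% of all genes. In maDCs 0 of 7 were lower and 2 of 7 higher than in imDCs, near the 21.6% of all genes that were higher. Those higher were Gata2 (2.68) and Kit (1.15), which are also in the mast cell and basophil list. Flt3 is also among the DC markers. Neutrophil genes were lower than in imDCs in 6 of 9 cases in maDCs and 7 of 9 in sDCs. The shares over all genes were 10.7% and 16.1%. Mmp9 was higher than in imDCs in maDCs (1.79), and Mmp9 (3.63) and Mmp8 (1.04) in sDCs. Between sDCs and maDCs 4 neutrophil genes were lower and 3 higher (median 0.19). In the antibody culture 5 of 9 neutrophil genes were at least 2-fold higher than in sDCs, as were 0.851% of all genes. Their summed level was 8.14 on anti-IL-10 sDC, 7.37 on sDC, 6.54 on maDC and 9.99 on imDC. Stromal genes were higher in sDCs than in imDCs in 10 of 11 cases (median 7.21), with Thy1 the exception. Their summed level was 6.76 on anti-IL-10 sDC, 7.62 on sDC, 6.69 on maDC and 6.75 on imDC. Thy1 alone lay at 6.63 on maDC and 6.74 on imDC, which is nearly all of the sums on those arrays. With the antibody all 11 stromal genes lay below 0, at -0.98 to -0.35, where 42.3% of all genes lay above 0. DC markers were lower in sDCs in 11 of 11 cases against both other DC cultures, and Irf4 was not well above background on the sDC array. Macrophage genes were higher in 8 of 10 cases in maDCs and in 10 of 10 in sDCs than in imDCs (medians 1.32 and 3.63). Mrc1 went the other way in maDCs, at -3.04. Mast cell and basophil genes went the other way from the 54 genes in maDCs, with 7 of 7 higher than in imDCs (median 2.68), and were lower in 7 of 7 cases in sDCs (median -4.01). All 3 eosinophil genes with a value were lower than in imDCs in both cultures. Beside these marker counts, 10.7% of all genes were lower and 21.6% higher in maDCs than in imDCs. In sDCs 16.1% were lower and 25.4% higher than in imDCs, and 16.8% lower and 14.2% higher than in maDCs. The part of these cells in the values of the 54 genes was not tested.

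**Figure D4:**
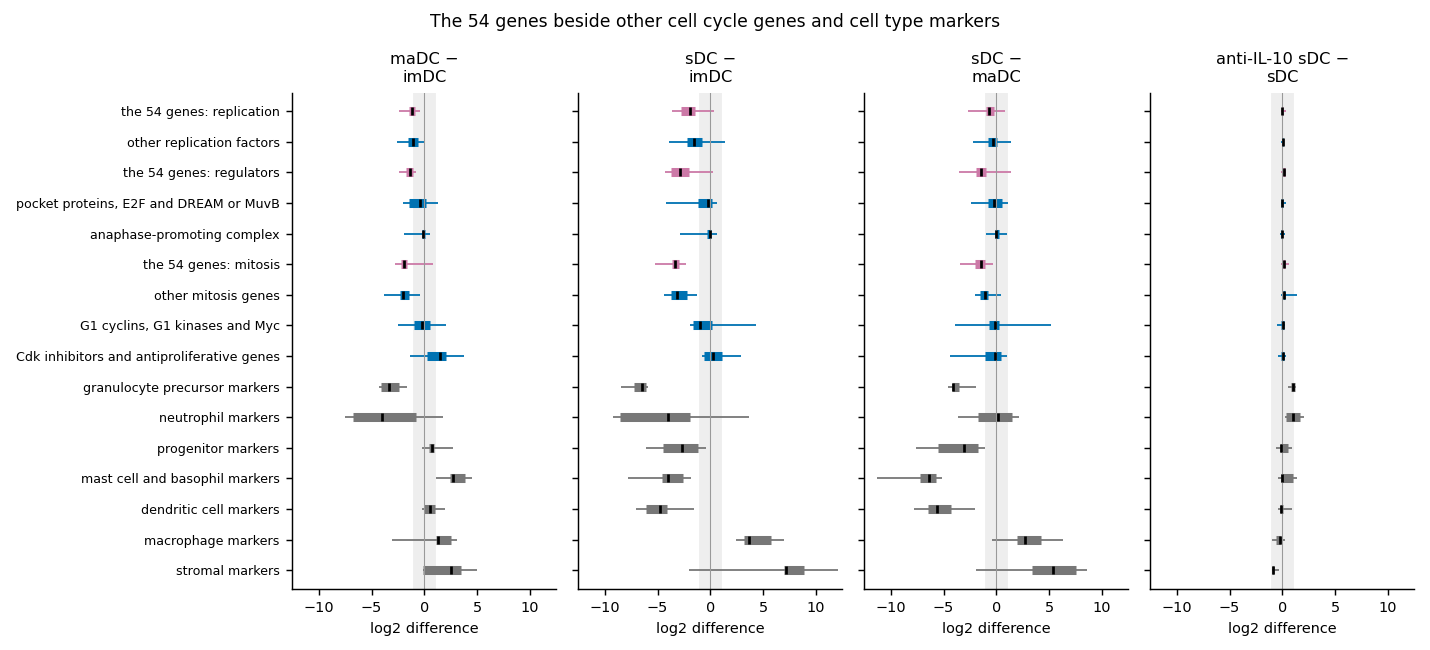
Log2 difference of the 54 genes in 3 classes (pink), of other cell cycle lists (blue) and of marker lists (grey) in the 4 comparisons, as the median (black line), the interquartile range (thick bar) and the full range (thin line), with the band within 2-fold shaded. Mitosis genes inside and outside the 54 lie to the left in the comparisons with imDCs, with medians of -3.31 and -3.18 in sDCs, the kinase inhibitors lie to the right in maDCs, and granulocyte precursor markers lie to the left in all comparisons but the antibody one.

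Other probes gave a check within the arrays. Of the 54 genes 31 had 38 further probes, and among those with a value the sign was the same as on the chosen probe in 30 of 31 for maDCs against imDCs, 33 of 34 for sDCs against imDCs and 26 of 28 for sDCs against maDCs. For genes at least 2-fold different on the chosen probe, 0 other probes went 2-fold the opposite way. In the same order of comparisons, 23 of 25, 26 of 31 and 16 of 21 of them passed 2-fold the same way. Bub1 fell outside this count, at 0.87 on its chosen probe and -1.92 on the other in maDCs against imDCs. In the antibody comparison, where differences were small, 19 of 26 had the same sign.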

How the data were processed

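RNA from 4 mouse DC cultures was hybridised to 1-colour Agilent arrays (Cy3, 0.5 µg). The authors deposited 1 scanner table per array, whose processed intensity per spot is background-subtracted by Agilent Feature Extraction 10.5.1.1, per the file headers, while the submitters' processing notes name version 9.1, and a log2 value table, also deposited by the authors, which correlated with the scanner values at 0.997 to 1.00 and was used as an alternative (each column has a median of 6.30, genes are not centred, and with 1 sample per array no direction is open). Log2 processed intensity minus the array's 75th percentile over non-control spots was used. Outlier-marked spots (148, 117, 132 and 76 on the anti-IL-10 sDC, sDC, maDC and imDC arrays) were left out, replicate spots were averaged, and being well above background needed the scanner's mark on at least 50% of a probe's spots. A gene dim on 1 array gave a bound. Symbols were updated through a RefSeq table of GRCm38.p6 (27865 probes by symbol, 4816 by synonym, 8401 unnamed). In simulated data with spot noise alone, the script recovered changes that were set past the threshold in bright probes. That checks the code and does not speak to dim genes or to the spread between cultures. Python 3.11.15 with numpy 2.4.6 and pandas 2.3.3, R 4.3.3 and limma 3.58.1 (normexp) were used.

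The 54 genes and the lists were chosen with earlier results of these data known. Values on every array are given for the 2 most negative genes and the most positive gene of each role in sDCs against imDCs and for the 3 most negative and 3 most positive in each comparison. Those of Mki67, the gene of a proliferation marker, were added outside this rule. Of other lists, up to 4 genes with the largest differences are named. Alternatives were quantile normalization, the authors' values, normexp background correction, another base for the percentile, a filter on dim genes, the mean over probes, outlier-marked spots kept, and thresholds of 1.5-fold and 3-fold.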

Additional observations from a re-analysis of the deposited data

How the results depend on the processing

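No paired analysis was possible because each group had 1 array. Over the alternatives, the median difference of the 54 genes kept its sign in all 4 comparisons, at -1.83 to -1.59 for maDCs against imDCs, -3.24 to -2.86 for sDCs against imDCs, -1.31 to -1.10 for sDCs against maDCs and 0.09 to 0.11 for the antibody culture against sDCs. The values that moved by more than the spot SD were -1.75 and -3.07 under quantile normalization and -1.83 and -3.24 with the authors' values (maDCs and sDCs against imDCs), -2.86 and -1.10 under normexp, and -2.88 and -1.10 with the mean over probes (sDCs against imDCs and against maDCs). Quantile normalization moved the median of all genes from 0.19 to -0.02 in maDCs and from 0.21 to 0.0012 in sDCs against imDCs, and the all-gene shares lower and higher to 13.5% and 16.8%, and to 18.9% and 20.4%, while the authors' values gave 13.7% and 17.7%, and 19.0% and 21.0%. The median of the 54 genes relative to that of all genes was -1.77 and -3.18 in the main setting and -1.73 and -3.07 under quantile normalization. At 1.5-fold, 1 gene was higher in maDCs than in imDCs, 4 in sDCs than in maDCs and 1 in the antibody culture. At 3-fold, 27 genes were lower in maDCs than in imDCs, and 16 were lower and 0 higher in sDCs than in maDCs. The difference of Rrm1 between maDCs and imDCs was 0.29 with the mean over probes, against -1.20 in the main setting. That mean takes in a second Rrm1 probe that was not well above background on any array. This probe read -7.49 on maDC and -9.27 on imDC. With that mean Bub1 turned to -0.53 in maDCs against imDCs, E2f1 to -0.05 in sDCs against imDCs and Cdc6 to 0.02 in sDCs against maDCs. With 1 array per group, no alternative speaks to the spread between cultures.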
